A study of Mus musculus with 12 samples.

Results

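The respiratory chain is built from 2 genomes, and the messenger RNAs of both were compared in the hippocampus of mice with and without a large brain microRNA cluster. The members were found by name: rows whose symbol begins with mt-Nd, mt-Co, mt-Cytb, mt-Atp, Nduf, Uqcr, Atp5, Cox4, Cox5, Cox6, Cox7 or Cox8, and Sdha, Sdhb, Sdhc, Sdhd, Cycs and Cyc1. Of 33250 symbols in the deposited table, 115 matched. Of these, 4 with a -ps pseudogene symbol were set aside, and 5 (Cox4i2, Cox7a1, Cox7b2, Ndufa11b and Cox6c2) lay under the required mean CPM (counts scaled to a common library size) of 1 over the 12 libraries. That left 106 members, 13 encoded in mitochondrial DNA and 93 in the nucleus, among 15554 genes at the same minimum. Just inside the minimum were Cox8b at 1.24 CPM and Cox6a2 at 1.93 CPM, and just outside were Cox4i2 at 0.911 and Cox7a1 at 0.892 CPM.

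Bulk hippocampal tissue came from male mice, and polyadenylated RNA was sequenced from 6 wild-type (WT) animals and 6 conditional knockouts (cKO). In the knockouts, Cre recombinase under the control of Emx1 removed the miR379-410 cluster from Emx1-positive cells, a lineage that includes the pyramidal and granule neurons. The tissue also holds interneurons, microglia and vessels outside that lineage, so each value is an average over deleted and undeleted cells. The sources used here do not give the animals' age in numbers or say whether the controls carried floxed alleles or Cre. Library totals ran from 42360558 counts (WT 2) to 51095758 counts (cKO 6). Pan-neuronal, astrocyte, oligodendrocyte and microglial markers were all above 0 in every library.

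Libraries differed in 3 respects that touch the results. The library labelled cKO 1 stood with WT at B830012L14Rik, the transcript with the highest fold change of all genes tested: it had 0.788 CPM, against 0.31 to 0.865 in WT and 17.4 to 25.8 in the other 5 cKO libraries. Its Emx1 level, 9.14 CPM, also lay in the WT range of 8.38 to 9.6, while the other cKO libraries had 5.91 to 6.84. The counts of nuclear and mitochondrial members with higher estimates, their medians and the ratio between genomes are therefore also given without it. So are the fold changes of Ndufc2, Ndufaf6, Atp5s and mt-Nd3, but not those of the other genes named. WT 2, WT 3 and cKO 4 held little choroid plexus, the secretory epithelium of the ventricles: 15 of its markers summed to 230, 934 and 164 CPM there and to 3510 to 11600 CPM elsewhere. Vessel wall markers had higher estimates in cKO for 13 of 14 smooth muscle and pericyte genes. Of the 14, 9 were higher at an unadjusted p below 0.05 (3.2% of all genes tested) and 5 had non-overlapping groups (0.404% of all genes tested). None was called (smallest adjusted p 0.115 by edgeR), against 2 of all 19325 genes tested. Their sums were 285 to 324 CPM in WT and 349 to 430 CPM in cKO, with no marker at 0 in any library. In bulk tissue, fewer cells of a type and less RNA per cell cannot be told apart.

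Oxidative phosphorylation couples the oxidation of NADH and succinate to ATP synthesis at the inner mitochondrial membrane. Complexes I and II pass electrons to ubiquinone, complex III passes them to cytochrome c, complex IV reduces oxygen, and complex V uses the proton gradient to make ATP. Complexes I, III, IV and V mix subunits from both genomes, whereas complex II and cytochrome c are wholly nuclear. Neurons depend on this pathway to fuel ion pumping and transmission.

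The 93 nuclear members comprised 38 complex I rows, 8 complex I assembly factors (the Ndufaf genes), the 4 subunits of complex II, 9 of complex III, somatic cytochrome c, 16 of complex IV and 17 of complex V. Ndufa4 and Ndufa4l2 were counted with complex IV, where their proteins reside. The mitochondrial genome contributed 7 subunits of complex I, mt-Cytb of complex III, 3 of complex IV and 2 of complex V. Among the complex I rows, Ndufb1-ps and Ndufb4c passed the naming rule although the GENCODE annotation lists them as a noncoding transcript and a processed pseudogene.

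Sequences from 2 sets bear on what could be measured. The first is mt-Nd3, which encodes a small membrane subunit of complex I at chrM:9459-9806 of GRCm38, and its annotated nuclear copy Gm28438 at chr1:24612775-24613119, on the minus strand. Over the 345 bases that could be compared, the 2 transcripts differed at 1 position, T3C, counted from the first base of the mt-Nd3 transcript. The first 30 bases of each are shown, with the differing base in capitals.
mt-Nd3: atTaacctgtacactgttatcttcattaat
Gm28438: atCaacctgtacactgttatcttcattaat

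The second set is the deleted microRNAs themselves. RefSeq places 38 microRNA genes with 71 mature arms at chr12:109709060-109743795 of GRCm38. A microRNA pairs to targets through its seed, bases 2 to 8, and the sites searched here were the seed's complement followed by an A, 64 different 8-base sequences in all. The arms below are those of the 6 example sites printed later, with the seed in capitals. The pair miR-376b-5p and miR-376c-5p shares a seed, and the others shown have seeds of their own.
miR-666-3p: gGCUGCAGcgugaucgccugcu
miR-668-3p: uGUCACUCggcucggcccacuacc
miR-154-3p: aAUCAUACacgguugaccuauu
miR-495-3p: aAACAAACauggugcacuucuu
miR-381-5p: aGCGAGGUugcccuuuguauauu
miR-376b-5p: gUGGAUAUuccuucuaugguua
miR-376c-5p: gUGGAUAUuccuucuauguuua

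The mitochondrial transcripts far exceeded the nuclear ones. Summed over the 13 genes, they took 6.34% to 7.35% of counts in WT (6.84 ± 0.39%, SD, n = 6) and 6.62% to 7.45% in cKO (7.01 ± 0.298%). The 93 nuclear members together took 0.747% to 0.87% in WT (0.793 ± 0.0413%) and 0.767% to 0.87% in cKO (0.811 ± 0.035%). The ranges of both sums overlapped between genotypes. Per kilobase of the longest coding transcript, levels ran from 113 to 13100 CPM for the mitochondrial genes (median 4510) and from 2.27 to 424 CPM for the 91 nuclear members with a coding length (median 67.2). The lowest mitochondrial gene, mt-Nd6, is the one subunit gene on the light strand. The median nuclear level per kilobase was 101 CPM for complex V, 98.2 for complex IV, 82.3 for complex III, 58.8 for complex II, 55.6 for complex I and 9.7 for the complex I assembly factors. Assembly factors are not part of the finished enzyme.

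**Figure D1:**
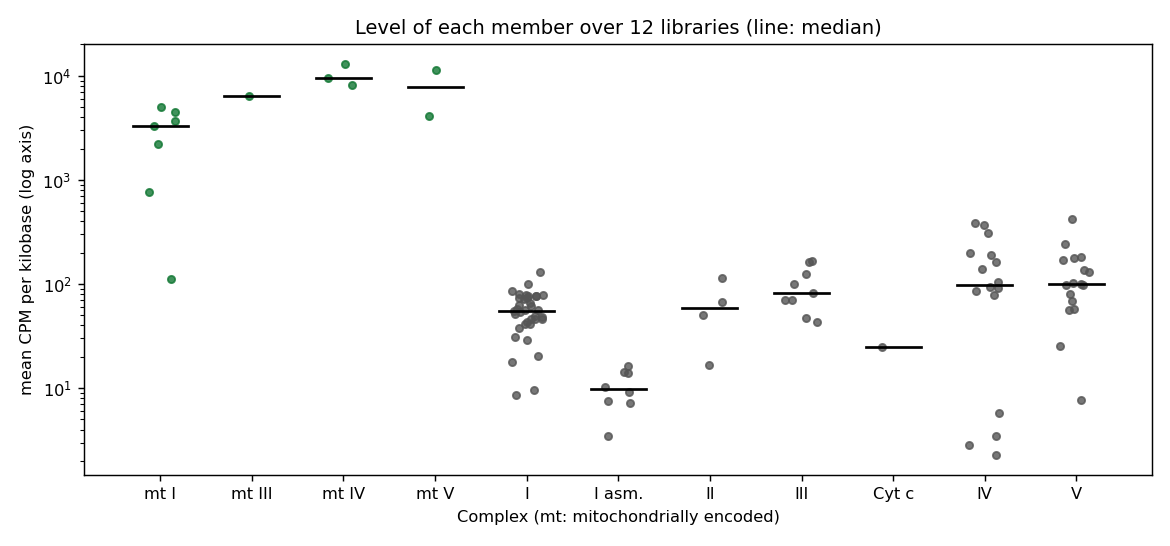
Mean level of each member over the 12 libraries, in CPM per kilobase on a log axis, by complex, with a line at the median of each group. Mitochondrially encoded genes (green) lie above the nuclear genes (grey) of the same complex except mt-Nd6 at 113 CPM per kilobase, which lies within the nuclear complex I range.

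No member was called between genotypes, in either genome, and all 106 passed the low-count filter. In edgeR's quasi-likelihood test with Benjamini-Hochberg adjustment over 19325 genes, 2 genes (0.0103%) passed an adjusted p of 0.05, and neither was a member. The smallest adjusted p of a member was 0.528, shared by mt-Nd3 and Atp5s. At an unadjusted p below 0.05 there was also no member, against 9.54% of all genes tested (3.2% higher in cKO and 6.34% lower). That count of 0 was not firm: in 16 of 24 alternatives at least 1 member was at an unadjusted p below 0.05. Without WT 1, 9 of 106 members were below it, beside 2799 of all 19492 genes tested in that setting. Any other alternative had at most 3 such members, and none passed the adjusted threshold. No member had 6 cKO libraries clear of the 6 WT libraries, against 0.404% of all genes tested. The 95% confidence interval of the log2 fold change lay within 0.3 of zero for 99 of 106 members and within 0.2 for 85, so changes larger than that lie outside the interval for these genes. Among the 13 mitochondrial genes the intervals reached from -0.19 to 0.44 on the log2 scale.

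Most estimates nonetheless lay slightly above 0. Of the nuclear members, 81 of 93 had a higher estimate in cKO, the log2 fold changes running from -0.08 to 0.20 around a median of 0.03. Of the mitochondrial genes, 12 of 13 were higher, with a median of 0.03 and a range of -0.01 to 0.22. Over all genes tested, 53.4% were higher and the median was 0.01. A typical nuclear member had an interval from -0.08 to 0.14. Without the library labelled cKO 1, the nuclear count was 75 of 93 (median 0.02) and the mitochondrial count 12 of 13 (median 0.03). By complex, the nuclear counts without it were 31 of 38 for complex I, 7 of 8 for its assembly factors, 4 of 4 for complex II, 6 of 9 for complex III, 12 of 16 for complex IV and 14 of 17 for complex V. The members share libraries and do not count as independent observations of genotype. Marker lists also leaned 1 way, with none of their genes past the adjusted threshold and overlapping sums: all 15 choroid plexus, 10 endothelial and 8 ependymal markers had higher estimates in cKO, and all 10 oligodendrocyte markers had lower ones, with sums of 3440 to 5190 CPM in WT and 2800 to 4620 CPM in cKO. The part of cell composition in the members' estimates was not tested.

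**Figure D2:**
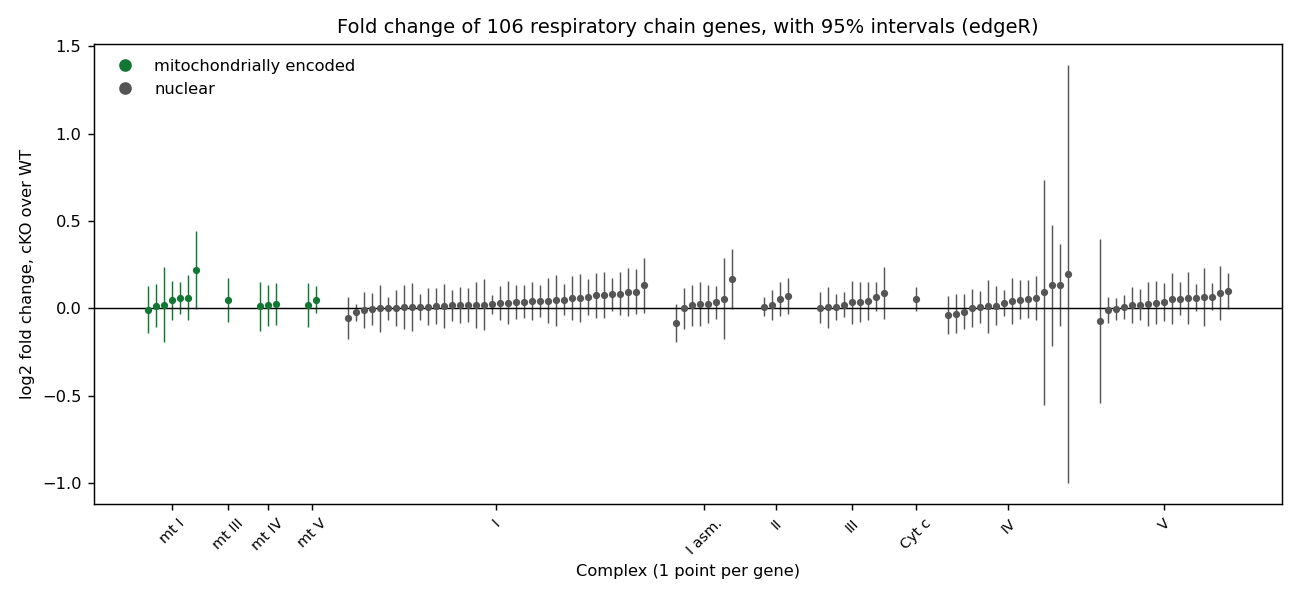
Log2 fold change of cKO over WT for each of the 106 members with its 95% confidence interval, sorted within complex. Points cluster slightly above 0, every interval spans 0, and the widest intervals belong to Cox8b, Cox6b2 and Atp5g2.

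The count of higher estimates rested on single libraries. The sum of the nuclear members was 8640, 8040, 7910, 7970, 7490 and 7730 CPM in WT 1 to WT 6, and 8070, 8020, 7590, 8040, 8240 and 8560 CPM in cKO 1 to cKO 6. WT 1 and cKO 6 were thus the highest and WT 5 and cKO 3 the lowest, 1 of each genotype at either end. Nuclear members moved as a block: 89 of 93 lay above their own 12-library mean in WT 1 and 87 in cKO 6, but 4 did so in WT 5 and 7 in cKO 3. Without cKO 6, 48 of 93 nuclear members were higher in cKO and their median log2 fold change was 0.0038. Without WT 5 the count was 60, and without WT 6 it was 61. Without WT 1 it rose to 85 with a median of 0.06. In that setting 8 of 93 nuclear members had an unadjusted p below 0.05, all higher in cKO, beside 2799 of all 19492 genes tested. The smallest adjusted p among all members was then 0.187 by edgeR. The mitochondrial count of 12 of 13 moved too. It was 7 without WT 6, 8 without WT 5 or without cKO 4, and 13 without WT 3 or without cKO 6.

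Cytosolic ribosomal protein genes, another family of short and abundant nuclear transcripts, shifted in the same libraries. Their median log2 deviation from the 12-library mean was 0.11 in WT 1, 0.12 in cKO 6, -0.14 in WT 5 and -0.07 in cKO 3. The nuclear respiratory chain members had 0.11, 0.12, -0.12 and -0.08 in those libraries. Short members moved more than long ones. The 49 with a longest coding transcript under 1000 bases deviated by 0.15 in WT 1 and by -0.15 in WT 5, and the 25 of 1500 bases or more deviated by 0.07 and -0.09. The shorter group also had a lower median level, 52.0 CPM against 107 CPM. The parts of transcript length and of level in these shifts were not tested.

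**Figure D3:**
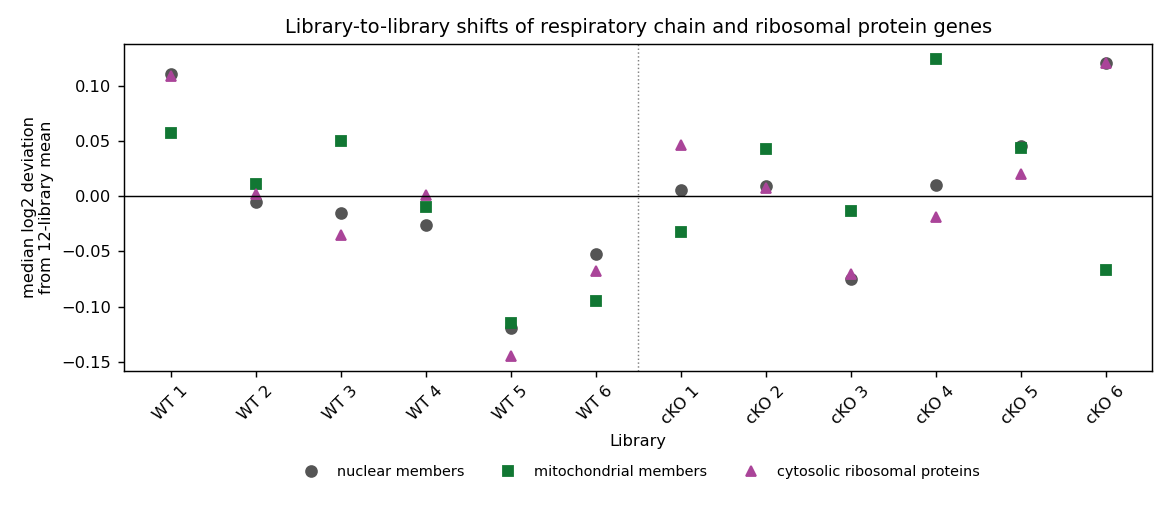
Median log2 deviation from the 12-library mean in each library for the nuclear members (circles), the mitochondrial members (squares) and cytosolic ribosomal protein genes (triangles). Circles and triangles are high in WT 1 and cKO 6 and low in WT 5 and cKO 3, whereas the squares leave them in cKO 4 (0.12) and cKO 6 (-0.07).

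The 2 genomes did not keep a fixed proportion in every library. The summed mitochondrial counts were 8.35 to 9.08 times the nuclear ones in WT (8.62 ± 0.26, SD, n = 6) and 7.61 to 9.43 times in cKO (8.66 ± 0.634). Both extremes were knockouts: cKO 6 had the lowest ratio and cKO 4 the highest. The log2 ratio averaged 3.11 in both genotypes, a difference of 0.0038 (0.014 without the library labelled cKO 1), and the groups overlapped. cKO 4 was also the library with the least choroid plexus RNA and a mitochondrial share of 7.45%, and the part of tissue composition in its ratio was not tested.

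Complex I, the NADH dehydrogenase, had 33 of 38 nuclear rows higher in cKO, with a median log2 fold change of 0.03. The smallest p belonged to Ndufc2, a membrane arm subunit. It ranged from 45.6 to 55.8 CPM in WT (median 50.6) and from 50.1 to 55.7 in cKO (median 53.4), a log2 fold change of 0.08 ± 0.04 (SE), or 0.08 ± 0.05 without cKO 1. The cKO values all lay inside the WT range. Ndufab1, the mitochondrial acyl carrier protein, followed with 31.9 ± 1.07 CPM in WT and 35.0 ± 4.79 in cKO (SD, n = 6), a spread set by 1 library, cKO 4, at 44.0 CPM. Ndufb2, another membrane arm subunit, had 36.4 ± 1.81 and 38.9 ± 3.75 CPM. Ndufv1, the abundant core subunit of the matrix arm that binds NADH, had 120 ± 6.96 CPM in WT and 122 ± 4.71 in cKO.

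Among the assembly factors of complex I, 7 of 8 were higher in cKO, with a median log2 fold change of 0.03. Ndufaf6 came nearest to a difference among all the Ndufaf genes. It ranged from 3.14 to 3.81 CPM in WT (median 3.66) and from 3.52 to 4.47 in cKO (median 4.02), and 4 cKO libraries exceeded every WT library. Its log2 fold change was 0.17 ± 0.08, with an adjusted p of 0.538 by edgeR, and without cKO 1 it was 0.18 ± 0.08. Ndufaf1, which acts early in building the membrane arm, was the member with the lowest estimate of all: 13.9 ± 0.609 CPM in WT and 13.1 ± 0.836 in cKO, or -0.08 ± 0.05 on the log2 scale. The others of high level or small p, Ndufaf4 and Ndufaf7, had 27.0 and 27.5 CPM in WT and 27.7 and 28.0 in cKO.

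Complex II, succinate dehydrogenase, also belongs to the citric acid cycle. Its flavoprotein subunit Sdha was among the steadiest members, at 332 ± 7.59 CPM in WT and 335 ± 6.71 in cKO, with an interval of -0.04 to 0.07 for the log2 fold change. The iron-sulphur subunit Sdhb had 76.3 ± 3.94 and 77.4 ± 3.25 CPM. The membrane anchors Sdhc and Sdhd had 52.0 ± 3.94 against 54.7 ± 2.37 and 60.9 ± 4.17 against 63.3 ± 2.49 CPM. All 4 estimates were above 0, although those of Sdha and Sdhb changed sign in 2 and 1 of 24 alternatives, and the groups overlapped for each gene.

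In complex III, all 9 nuclear members had estimates above 0, with a median log2 fold change of 0.03. Cyc1, which carries the haem that reduces cytochrome c, had 105 ± 5.63 CPM in WT and 110 ± 4.27 in cKO. The small subunits Uqcr10 and Uqcrh had log2 fold changes of 0.09 ± 0.07 and 0.04 ± 0.05. The core subunits Uqcrc1 and Uqcrc2, the most abundant, stood at 166 against 167 and 132 against 133 CPM, and their estimates changed sign in 5 and 1 of 24 alternatives. Cytochrome c itself, Cycs, had 75.3 ± 2.87 and 78.2 ± 2.60 CPM, a log2 fold change of 0.05 ± 0.03, and 5 of 6 cKO libraries lay above the WT mean.

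Complex IV, cytochrome c oxidase, is the complex with most tissue-specific isoforms, and the general forms dominated here. Cox4i1 had 284 ± 20.6 CPM in WT and 284 ± 15.6 in cKO, while its lung-enriched partner Cox4i2 had 0.909 ± 0.182 and 0.914 ± 0.0488 CPM. Cox6a1 had 178 against 176 CPM, and the heart and muscle form Cox6a2 had 1.84 against 2.02. The general form Cox6b1 had 118 against 119 CPM and the testis form Cox6b2 had 3.28 against 3.50. Cox7a2 had 67.1 against 69.5 CPM and Cox7a2l, a factor in supercomplex assembly, had 104 against 106, while the muscle form Cox7a1 had 0.855 against 0.927. Cox8a had 214 ± 17.2 and 210 ± 10.2 CPM, and the muscle form Cox8b had 1.15 ± 1.08 and 1.33 ± 0.614. Ndufa4 had 118 against 122 CPM, and its relative Ndufa4l2, known as a hypoxia-responsive gene, had 2.02 ± 0.233 against 2.22 ± 0.284. Among the other nuclear subunits, Cox5a and Cox7b had log2 fold changes of 0.05 ± 0.05 and 0.06 ± 0.06. Every isoform named here had an interval that spanned 0, and the intervals were widest for the low isoforms.

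Complex V, ATP synthase, had the most abundant nuclear members. Atp5b, the catalytic beta subunit, had 811 ± 29.6 CPM in WT and 816 ± 17.9 in cKO. The alpha subunit Atp5a1 had 656 ± 21.0 and 655 ± 10.9 CPM. Atp5s, coupling factor B, had the smallest p of all nuclear members. It ranged from 11.1 to 12.3 CPM in WT (median 11.8) and from 11.9 to 13.6 in cKO (median 12.6), and 4 of the 6 knockouts exceeded the highest WT value. Its log2 fold change of 0.10 ± 0.05 had an adjusted p of 0.528 by edgeR, and it was 0.07 ± 0.05 without cKO 1. The delta subunit Atp5d and the peripheral stalk subunit Atp5f1 had 0.07 ± 0.04 and 0.06 ± 0.04. Subunit c, which forms the rotating ring, comes from 3 genes: Atp5g1 had 117 ± 14.4 against 125 ± 8.69 CPM, Atp5g3 had 128 ± 9.38 against 131 ± 7.62, and Atp5g2 had 43.7 ± 14.8 against 41.6 ± 12.3.

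The mitochondrial genes are transcribed as long precursors and cut apart, and the CPM assigned to them differed widely. These CPM are not scaled for length: mt-Atp8 has 204 bases and mt-Atp6 has 681. The parts of gene length and shared sequence in the gaps between genes were not tested. The complex IV core subunit mt-Co1, with 20200 ± 1260 CPM in WT and 20400 ± 1050 in cKO, was the highest member of either genome. mt-Co2 had 6490 ± 428 against 6600 ± 326 CPM and mt-Co3 had 6380 ± 376 against 6460 ± 309. mt-Cytb had 7130 ± 395 and 7380 ± 472 CPM. mt-Atp6 had 7680 ± 504 against 7790 ± 372 CPM, and mt-Atp8, whose reading frame overlaps it, had 832 ± 39.1 against 862 ± 21.7. The log2 differences of these 6 genes lay between 0.01 and 0.05, each smaller than its standard error except mt-Atp8 at 0.05 ± 0.04.

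Of the 7 mitochondrial complex I subunits, mt-Nd1 had 4800 ± 237 CPM in WT and 4860 ± 350 in cKO. mt-Nd2 had 3730 ± 147 against 3850 ± 258 and mt-Nd5 had 4070 ± 192 against 4050 ± 372. mt-Nd4 and mt-Nd4l, which share a transcript, had log2 fold changes of 0.06 ± 0.06 and 0.06 ± 0.04. mt-Nd6 overlapped: 52.6 to 63.1 CPM in WT and 44.6 to 70.1 in cKO, with the lowest value in cKO 6 and the highest in cKO 4. mt-Nd6, at chrM:13552-14070 on the minus strand, overlaps only the end of mt-Nd5, at chrM:11742-13565 on the plus strand. The sources used here do not say whether the counting used strand. The ribosomal RNAs of the same genome, outside the naming rule, had log2 fold changes of 0.02 ± 0.07 (mt-Rnr1) and 0.03 ± 0.06 (mt-Rnr2).

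mt-Nd3 had the highest mitochondrial estimate, and its value depended on how reads were divided with the chromosome 1 copy. The WT libraries had 302, 240, 250, 182, 265 and 234 CPM and the cKO libraries 325, 301, 233, 279, 292 and 286, a log2 fold change of 0.22 ± 0.10. The cKO libraries were mostly high, but the groups overlapped. The copy Gm28438, which differs from mt-Nd3 at T3C alone, had 264, 342, 298, 362, 226 and 287 CPM in WT and 206, 274, 285, 309, 274 and 272 in cKO. WT 4, lowest for mt-Nd3, was highest for the copy, and cKO 1, highest for mt-Nd3, was lowest for the copy. The 2 summed to 492 to 588 CPM, with a coefficient of variation of 5.3% over 12 libraries, against 14.9% for mt-Nd3 alone and 15.2% for the copy. With copies added to their mitochondrial genes, an alternative chosen after seeing the data, the log2 fold change of mt-Nd3 was 0.03 ± 0.05. Without cKO 1, and with mt-Nd3 counted alone, it was 0.17 ± 0.11.

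Copies with shared sequence were widespread among the mitochondrial genes. Of all 31-base words in each transcript, the share found in no other annotated gene was 0% for mt-Co2, 0.133% for mt-Co3 and 0.461% for mt-Atp6. It was 1.12% for mt-Nd4l, 1.89% for mt-Nd3, 36.1% for mt-Co1 and 37.2% for mt-Nd4. For mt-Nd5, mt-Nd2, mt-Atp8, mt-Nd6 and mt-Cytb it ran from 83.2% to 93.4%, and for mt-Nd1 it was 100%. The mt-Nd4 copy Gm28439 was assigned 983 to 1250 CPM. The mt-Atp6 copy Gm10925 had 0 in 10 libraries, 9.19 CPM in WT 2 and 64.3 CPM in WT 4. The copies Gm28661 of mt-Co2, Gm28437 of mt-Co3 and Gm10222 of mt-Nd4l share 99.5%, 99.9% and 98.9% of the gene's words. These 3 copies were not among the 33250 symbols with counts. The levels of mt-Nd3, mt-Nd4 and mt-Atp6 are uncertain by the share given to their own copies.

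Nuclear members had the same property through processed pseudogenes. The subunit c gene Atp5g2 (chr15:102662864-102672352, GRCm38) had 67.2, 33.8, 35.2, 35.4, 33.0 and 57.6 CPM in WT and 41.1, 40.3, 35.4, 28.2, 39.8 and 64.6 in cKO. Its pseudogene Gm10175 (chr7:23946646-23947290), all of whose words lie in Atp5g2, had 0, 25.6, 24.1, 27.2, 22.9 and 0 CPM in WT and 23.1, 20.0, 23.2, 33.3, 25.1 and 0 in cKO. The 3 libraries in which Atp5g2 was high, WT 1, WT 6 and cKO 6, were the 3 in which the pseudogene was at 0. The sum ran from 55.9 to 67.2 CPM, with 60.4 ± 4.05 in WT and 62.3 ± 2.62 in cKO (SD, n = 6). Ndufab1 had 44.0 CPM in cKO 4 and 30.5 to 35.1 in the other 11 libraries, while its pseudogene Gm4459 had 5.62 CPM in cKO 4 and 13.3 to 17.5 elsewhere. Their sum was 47.3 ± 1.75 in WT and 49.1 ± 3.11 in cKO. Other members with a pseudogene at or above 1 CPM that shared most of its words were Cox7c, Cycs, Ndufa12 and Ndufb4. The copy of Ndufb4 is Ndufb4c, itself counted among the complex I rows. Their log2 fold changes were 0.02 ± 0.06 for Ndufb4 and -0.05 ± 0.06 for Ndufb4c. The Cox7c copy Gm12338 had a mean of 35.9 CPM, beside 55.8 for Cox7c, both scaled by library totals alone.

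**Figure D4:**
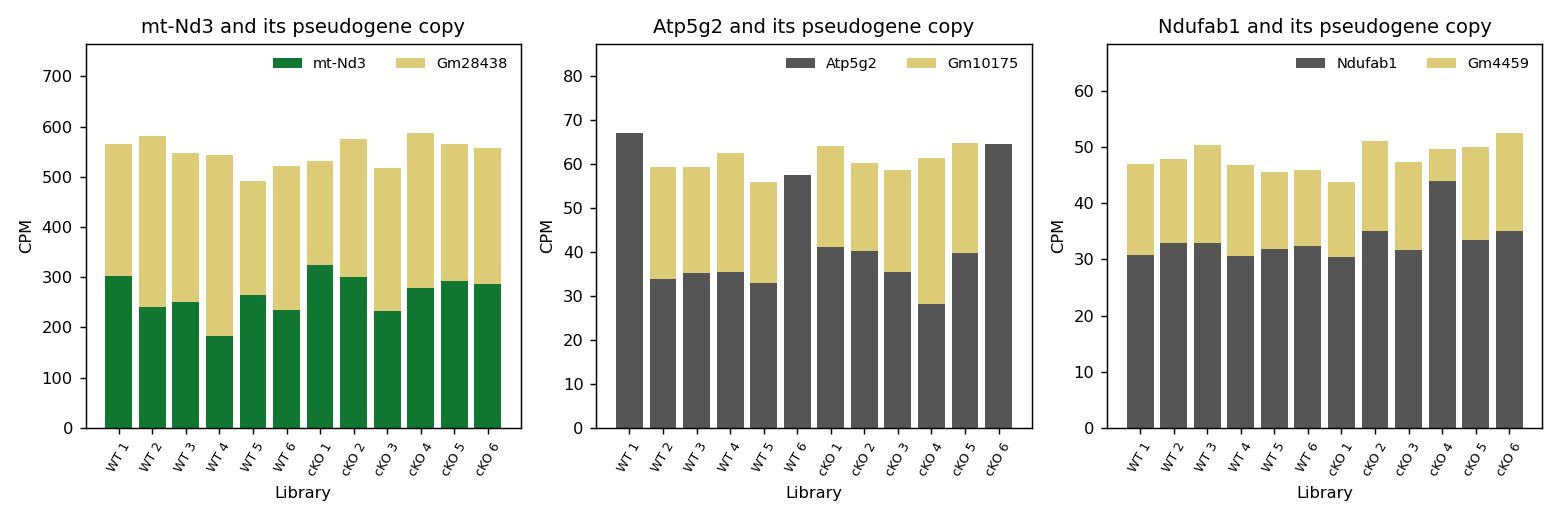
Stacked bars of the CPM assigned to mt-Nd3, Atp5g2 and Ndufab1 and, above each, to the copy named in the legend, for all 12 libraries. The stacks are of nearly even height although the division differs: Gm10175 is at 0 in WT 1, WT 6 and cKO 6, and Gm4459 is smallest in cKO 4.

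The low isoforms Cox8b and Cox6b2 followed choroid plexus RNA. In WT 1 to WT 6 the choroid plexus markers summed to 11600, 230, 934, 3510, 4510 and 6880 CPM, and in cKO 1 to cKO 6 to 6530, 5090, 7930, 164, 5680 and 7730. Cox8b had 3.20, 0.239, 0.481, 1.07, 0.618 and 1.28 CPM in the WT libraries and 1.41, 1.26, 1.57, 0.148, 1.69 and 1.87 in the cKO libraries. Cox6b2 had 5.97, 1.86, 1.66, 2.77, 2.86 and 4.53 CPM in WT and 4.07, 3.08, 4.01, 1.84, 3.56 and 4.41 in cKO. WT 2, WT 3 and cKO 4 were the 3 lowest libraries for the markers and for both genes, and WT 1 was the highest for all of them. The log2 fold change of Cox8b was 0.20 ± 0.56 with all libraries, 0.82 without WT 1 and 0.02 without WT 2, WT 3 and cKO 4. That of Cox6b2 was 0.09 ± 0.30, 0.34 and -0.07 in the same order. The part of choroid plexus RNA in these values was not tested.

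**Figure D5:**
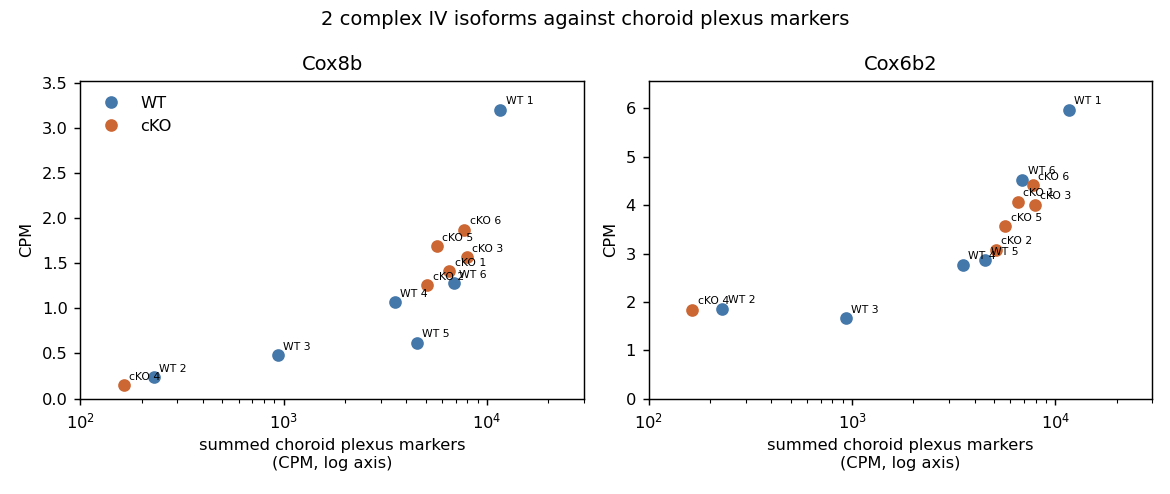
CPM of Cox8b and Cox6b2 in each library against the summed CPM of 15 choroid plexus markers on a log axis, WT in blue and cKO in orange. The 3 libraries with the lowest marker sums, WT 2, WT 3 and cKO 4, have the lowest values of both genes, and WT 1 has the highest.

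Spread between animals of 1 genotype differed among the members. The SD was taken on log2(CPM + 1), a scale that narrows the spread of genes near 1 CPM, such as Cox8b. Its median was 0.09 for nuclear members at 10 CPM or more, 0.08 for mitochondrial members and 0.08 for all genes tested at 10 CPM or more. Ndufs1, the largest iron-sulphur subunit of complex I, had an SD of 0.0268, lower than all but 0.217% of genes tested, and Sdha, Atp5a1 and Atp5b were also among the steadiest. Ndufs1 had 110 ± 2.66 CPM in WT and 108 ± 1.11 in cKO. The most variable members were Cox8b (0.56), Cox6b2 (0.45) and Atp5g2 (0.41), described above.

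Genes that make, import or feed the chain were also uncalled. Mitochondrial ribosomal proteins had 62 of 78 genes higher in cKO (median log2 fold change 0.03), with 1 at an unadjusted p below 0.05, Mrpl9 at 29.5 ± 0.967 and 31.4 ± 1.38 CPM, followed by Mrpl19 (0.08 ± 0.04). The machinery that replicates, transcribes and processes mitochondrial DNA and RNA had 13 of 25 higher (median 0.005). Its smallest p values belonged to Slirp, which stabilises mitochondrial messengers (13.5 ± 0.684 and 14.4 ± 0.637 CPM), and the elongation factor Tufm (47.9 ± 1.05 and 49.8 ± 1.63). Assembly factors outside the naming rule had 29 of 39 higher, with 1 gene at an unadjusted p below 0.05 in each direction: Cox10, needed for the haem of complex IV, at 21.3 ± 0.417 and 22.5 ± 0.933 CPM, and Ttc19, a complex III factor, at 75.7 ± 3.29 and 70.5 ± 3.33. Regulators of mitochondrial biogenesis had 12 of 16 higher (median 0.05). Gabpa, the ETS factor also called NRF2 alpha, had 30.2 ± 1.44 and 28.2 ± 1.62 CPM (log2 fold change -0.10 ± 0.04), and the coactivator Pprc1 had 0.12 ± 0.06.

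Citric acid cycle genes had 15 of 19 higher in cKO (median 0.02), led by Fh1, fumarase, at 45.6 ± 1.34 and 48.1 ± 2.24 CPM, with the pyruvate carrier Mpc1 at 0.06 ± 0.04. Glycolytic genes had 10 of 16 higher (median 0.01), with the smallest p values at Ldha (0.05 ± 0.04) and Pgam1 (0.04 ± 0.03). Among membrane organisers and carriers, 14 of 21 were higher. Opa1, which fuses and shapes the inner membrane, had 151 ± 8.17 and 142 ± 3.42 CPM (log2 fold change -0.09 ± 0.04), and the scaffold prohibitin gene Phb had 63.8 ± 3.18 and 67.6 ± 3.65. Gabpa, Fh1 and Opa1 had an unadjusted p below 0.05. The share of genes below it ran from 0% to 6.25% over these pathway lists, against 9.54% of all genes tested. No gene of these lists passed the adjusted threshold by edgeR. None had non-overlapping groups, against 0.404% of all genes tested.

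A smaller share of these genes than of other genes held a site for the deleted microRNAs. The GENCODE 3′ untranslated region (UTR) searched was the longest among each gene's coding transcripts tagged basic. Whether that transcript was the one expressed was not tested. At least 1 of the 64 sites lay in 30 of 91 nuclear members (33.0%), against 8830 of 13701 other genes (64.4%). The members' UTRs were short, with a median of 201 bases against 1262. Per kilobase of UTR, the density was 1.18 sites in members and 1.06 in other genes. Atp5g1 held 10 sites in 4252 bases, Ndufaf4 held 5 in 3026, and Atp5s, Ndufb2, Sdhd and Atp5a1 held 3 each. The windows below show 1 site each, in capitals, for members described above.
Atp5g1, miR-668-3p: atctggaattgGAGTGACAgggagatgtgt
Atp5g1, miR-376b-5p and miR-376c-5p: gcttttactggATATCCAAactcagaccct
Ndufaf4, miR-666-3p: catgaagaagcCTGCAGCAgaagagtgggt
Atp5s, miR-495-3p: caagaatgtgtGTTTGTTAgattctaattt
Sdhd, miR-381-5p: caatgccgttcACCTCGCAgtgagggggga
Cycs, miR-154-3p: ctgtggtttatGTATGATAtcaaataaaga

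Fold changes of members with and without a site covered overlapping ranges, and their difference was not tested. With a site, 26 of 30 were higher in cKO, with a median log2 fold change of 0.04, and without a site 54 of 61 were higher, with a median of 0.02. Of the 10 members with at least 2 sites, 9 were higher, with a median of 0.05. Without cKO 1 the counts were 26 of 30, 48 of 61 and 9 of 10. Atp5g1, with the most sites, had 104 to 145 CPM in WT (median 114) and 113 to 139 in cKO (median 125), a log2 fold change of 0.09 ± 0.07 that did not pass the test (adjusted p = 0.751 by edgeR). A site is a match of letters and does not show binding.

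A minority of nuclear members held, near the start site, each of 3 motifs known from respiratory genes. RefSeq promoter windows (GRCm38.p6, 250 bases before to 50 after the start) were matched for 76 nuclear members. The NRF1 motif, searched as GCGCATGC or its complement GCATGCGC, lay in 13 of 76 (17.1%), against 5.61% of 11364 genes at 1 CPM or more and 3.05% of all 27025 windows. The letters CCGGAAG or CTTCCGG, bound by ETS factors such as Gabpa, lay in 18 (23.7%, against 18.1% and 9.93%), and AAGATGG or CCATCTT, bound by YY1, in 12 (15.8%, against 7.97% and 7.28%). Overlapping matches were counted once per promoter. The windows show NRF1 motifs, in capitals, in 1 member each of cytochrome c and complexes I, II, III and IV, read on the gene's strand.
Cycs, chr6:50566611-50566640, minus strand: catgctagctcGCATGCGCgcgcacaaacc
Ndufa8, chr2:36049328-36049357, minus strand: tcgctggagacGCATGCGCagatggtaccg
Sdhb, chr4:140961206-140961235, plus strand: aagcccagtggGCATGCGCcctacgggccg
Uqcrc1, chr9:108936667-108936696, plus strand: gactccgctctGCGCATGCgcagcgcggct
Cox6a1, chr5:115349100-115349129, minus strand: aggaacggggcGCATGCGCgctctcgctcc

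With the NRF1 motif, 10 of 13 were higher in cKO (median log2 fold change 0.01), with the ETS letters 14 of 18 (median 0.02), and with the YY1 letters 11 of 12 (median 0.04). Without cKO 1 the counts were 8 of 13, 13 of 18 and 12 of 12. No difference between these groups was tested.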

How the data were processed

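RNA-seq values from 12 hippocampal libraries were used in the form of expected counts per gene, deposited as 1 table for the whole series; the authors made them with Salmon 1.3.0 on GRCm38, per the submitters' processing notes. Salmon divides reads between transcripts of shared sequence by estimation, and 24.8% to 25.9% of values in a library were not whole. Expected counts were rounded and tested with edgeR 4.0.16 in R 4.3.3 (filterByExpr by genotype, TMM scaling, quasi-likelihood test, Benjamini-Hochberg adjustment over all genes tested), with genotype as the single term and all 12 libraries. Levels are TMM-scaled CPM. DESeq2 1.42.0 and limma 3.58.1 (voom) were alternatives. The scripts were tested on simulated data. Replicates are different animals, and no 2 libraries of a genotype agreed within sampling noise.

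The members and gene lists were chosen with earlier results of these data known. Genes named are all mitochondrially encoded members, up to 3 nuclear members of smallest p and the 2 highest in each complex, isoform pairs, the Sdh genes, Cycs and Cyc1, and the 2 of smallest p in each pathway list. A gene that this rule would name is not reported here. Ndufs1 and the genes with pseudogenes were added after their values were seen. Gene positions, transcripts and UTRs come from GENCODE M21 (GRCm38), and microRNAs and promoters from RefSeq. Group scores and lists are described by counts and medians without a test.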

Additional observations from a re-analysis of the deposited data

Results flagged for a closer look

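In 11 of 116 groups of 6 libraries (58 quantities in 2 genotypes), the highest or lowest library stood apart from the other 5. The limit was the 95% value of Dixon's ratio of gap to range, which independent groups of normal values pass about 1 time in 20. These groups share libraries and many members moved together, so their count cannot be set against that rate. WT 1 was the library set apart in 4 of the 11 groups. It had 145 CPM of Atp5g1 (104 to 118 in the other WT libraries), 97.2 of Cox7b (78.1 to 82.9), 102 of Uqcrh (84.1 to 90.6) and 3.2 of Cox8b (0.239 to 1.28). WT 5 was low for Cox7a2, at 60.8 CPM (67.0 to 70.6).

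Among the knockouts, cKO 3 was low for Cox7a2, at 59.2 CPM (70.2 to 73.7), and for Atp5a1, at 633 CPM (656 to 663). cKO 1 was low for the assembly factor Ndufaf7, at 24.7 CPM (28.2 to 29.3). cKO 4 was low for Cox8b, at 0.148 CPM (1.26 to 1.87), and high for Ndufab1, at 44.0 CPM (30.5 to 35.1). cKO 6 was high for Atp5g2, at 64.6 CPM (28.2 to 41.1). The pseudogene counts beside Ndufab1 and Atp5g2, and the choroid plexus counts beside Cox8b, are given in the report.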

How the results depend on the processing

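No member was called under any of the 24 alternatives, and the medians of both groups of members stayed above 0 in each. The number of genes called among all genes was 2 with edgeR, 1 with no low-count filter, 4 with Ttr as a covariate, 85 with DESeq2, 0 with limma-voom, 0 with the replicate block, 0 without WT 2, WT 3 and cKO 4, and 0 to 6 when 1 library was left out (6 without cKO replicate 1); the cause was not tested. Animal numbers did not pair the libraries: same-numbered deviations correlated from -0.374 to 0.35, and the block changed no call on a member. Under other scalings 78 to 86 of 93 nuclear members and 12 or 13 of 13 mitochondrial members had higher estimates in cKO. Leaving out 1 library moved the nuclear median between 0.0038 (without cKO 6) and 0.0554 (without WT 1), and the mitochondrial median between 0.0025 (without cKO 4) and 0.0491 (without cKO 6). The difference in the log2 ratio of mitochondrial to nuclear counts lay between -0.0214 (without cKO 4) and 0.0405 (without cKO 6). With nuclear copies added, 74 nuclear members were higher. Depth is no limit for most members, but Cox8b, Cox6a2 and Ndufa4l2 rest on few counts.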
